A study of Mus musculus with 10 samples.

Results

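The 7 genes Tfap2c, Nanos3, Dnd1, Dazl, Dppa3, Mael and Sycp3, which are known for roles in the germline and in early epigenetic reprogramming, were followed by nuclear RNA-seq from ES cells to blood progenitors. They were chosen by name and matched by symbol to their Ensembl identifiers, and all 7 were found among the 55487 genes of the count tables. All 7 also passed the filter on low counts, which left 22596 genes for testing. The cells were HM-1, a mouse ES cell line, and 4 populations sorted from its differentiation in serum, with 2 libraries per stage and 10 in all. ES cells were cultured with LIF before differentiation. HB cells (hemangioblasts) were FLK1+ cells taken with magnetic beads from embryoid bodies after 3 d. These HB cells were cultured for a further 2.5 d as blast cultures and sorted by flow cytometry into HE1 (the early hemogenic endothelium, KIT+ TIE2+ CD41-), HE2 (the later hemogenic endothelium, KIT+ TIE2+ CD41+) and HP (hematopoietic progenitors, KIT+ TIE2- CD41+). All stages derive from a single ES cell line. For Mecom expression in these cell types the study states 2 biologically independent replicates. Nothing in the labels says whether the 2 libraries of a stage came from separate differentiations, so that p-values measure only the spread between these libraries.

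Germ cells arise in the mouse embryo from a few epiblast cells, in which a small set of transcription factors represses the somatic program and starts a genome-wide loss of DNA methylation. TFAP2C is one of these factors. NANOS3, DND1 and DAZL bind RNA and act later on the survival and identity of germ cells, DPPA3 (also called Stella or PGC7) acts on DNA methylation in the oocyte, zygote and primordial germ cells, MAEL belongs to the piRNA pathway that silences transposons, and SYCP3 builds the axis of meiotic chromosomes. Several such genes are kept silent in somatic cells by promoter DNA methylation and by a repressive complex, PRC1.6, that binds through E2F6 and MGA. Naive ES cells are known to transcribe a number of them at a low level.

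Counts per library lay between 24920434 and 58782055, and 3 counts, taken as the floor, were 0.0532 to 0.126 CPM, the counts of a gene per 1000000 counts of the scaled library. Intervals and floors cover counting error only. The ES markers (Pou5f1, Nanog, Sox2, Zfp42, Esrrb) summed to 1920 to 1998 CPM in ES and to 74.5 to 98.8 in HB, the endothelial markers had their highest mean in HE1 (2678 to 4692 CPM summed, overlapping 1954 to 3115 in HE2) and the hematopoietic markers in HE2 and HP (995 to 1394 CPM summed), so that none of the stage labels went against its markers. The HE1 libraries stood apart from each other. Replicate 2 held 67.0 CPM of the ES markers against 6.31 in replicate 1, with 5 of 5 markers higher and none at 0 in either library. Its endothelial markers summed to 2678 CPM against 4692, its cardiac and smooth muscle markers to 651 against 424, and its markers of gonadal soma (Sertoli and granulosa cells) to 18.9 against 7.53. Its mesoderm and hemangioblast markers summed to 735 CPM against 1278, although 4 of the 6 were higher in replicate 2. Its endoderm markers summed to 79.6 CPM against 99.5 and its hematopoietic markers to 199 against 311. Of the 4 tested endoderm markers, however, 2 were at least 2-fold higher in replicate 2 and 1 in replicate 1. The shares of all tested genes were 15.9% and 5.37%, and the median log2 difference of these 4 was 0.40. Comparisons with HE1 were therefore also fitted without each of its libraries. In these bulk samples, fewer cells with a transcript and less of it per cell cannot be told apart.

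Tfap2c (ENSMUSG00000028640, mm10 chr2:172549593-172558622, plus strand), the transcription factor of germ cell specification, had a level of 61.2 and 60.6 CPM in ES, 8.66 and 8.25 in HB, 1.43 and 4.72 at HE1, 0.792 and 0.413 at HE2, and 0.548 and 0.445 in HP. The levels of ES, HB and HE1 did not overlap and followed this order, and those of HE2 and HP overlapped below them. Tfap2c thus lost most of its level before HB, and in HP it held 0.815% of its ES mean.

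Nanos3 (ENSMUSG00000056155, chr8:84173731-84185217, minus strand) encodes an RNA-binding protein needed for the survival of primordial germ cells. It measured 3.62 and 4.33 CPM in ES, 0.430 and 0.338 in HB, 0.841 and 1.35 at HE1, 0.122 and 0.222 at HE2, and 0.251 and 0.254 in HP. Its order differed from that of Tfap2c, since both HE1 libraries lay above both HB libraries. HB, HP and HE2 followed without overlap but close together, with 4 to 13 counts in each of their libraries. The start of its gene model in the count tables lies 8665 bases upstream of the RefSeq start, and 2 microRNA genes (Mir181c and Mir181d) lie on the same strand within the gene but outside its exons.

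Dnd1 (ENSMUSG00000044595, chr18:36763671-36766214, minus strand) encodes an RNA-binding partner of the NANOS proteins. It had 7.59 and 7.40 CPM in ES, 6.28 and 5.66 in HB, 1.64 and 2.61 at HE1, 2.10 and 0.952 at HE2, and 2.76 and 2.23 in HP. Dnd1 was the member that changed least, and at no stage did its mean fall under 20.4% of the ES mean. ES and HB were near each other, while HE1, HE2 and HP lay lower, with HE1 overlapping both of the others. An exon of Wdr55 overlaps it on the opposite strand (17.6 to 43.4 CPM), and the counting used strand.

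Dazl (ENSMUSG00000010592, chr17:50279395-50293636, minus strand) encodes an RNA-binding protein that activates translation in germ cells and licenses them for meiosis. Its level was 5.29 and 6.25 CPM in ES and 0.231 and 0.113 in HB, from 7 and 4 counts. It then stood at 0.463 and 1.12 CPM at HE1, 0.731 and 0.540 at HE2, and 0.753 and 0.413 in HP. HB was the lowest stage, and HE1, HE2 and HP overlapped each other above it, at means of 10.1% to 13.7% of ES.

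Dppa3 (ENSMUSG00000046323, chr6:122626410-122630272, plus strand) measured 16.5 and 14.1 CPM in ES and 0.661 and 0.0563 in HB. The HE1 libraries gave 0.126 and 2.15 CPM. HE2 gave 0.0609 and 0.0317 CPM and HP gave 0.0684 and 0, all from 0 to 3 counts. Only ES stood clear of every other stage. HB and HE1 overlapped, as did HE2 and HP, and the pseudogene Dppa3-ps had at most 3 counts in any library.

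Mael (ENSMUSG00000040629, chr1:166201201-166238747, minus strand) encodes the piRNA pathway protein Maelstrom. It had 9.24 and 8.78 CPM in ES, 0.463 and 0 in HB, 0 and 1.12 at HE1, 0.0305 and 0 at HE2, and 0 and 0.0636 in HP. Outside ES, 48 of its 51 counts came from 2 libraries, 14 from HB replicate 1 and 34 from HE1 replicate 2. In each of the 4 sorted stages, 1 of the libraries had 0 counts, which allows up to 3 counts.

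Sycp3 (ENSMUSG00000020059, chr10:88459569-88473236, plus strand) was at 20.2 and 21.6 CPM in ES and kept 6.45 and 8.34 in HB, or 35.4% of the ES mean. It fell to 0.294 and 1.52 CPM at HE1, 0.396 and 0.540 at HE2, and 0.274 and 0.318 in HP. HE1 overlapped both later stages, and HE2 lay just above HP. The gene lies within the body of Chpt1 on the opposite strand (7.50 to 22.7 CPM), with overlapping exons.

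**Figure D1:**
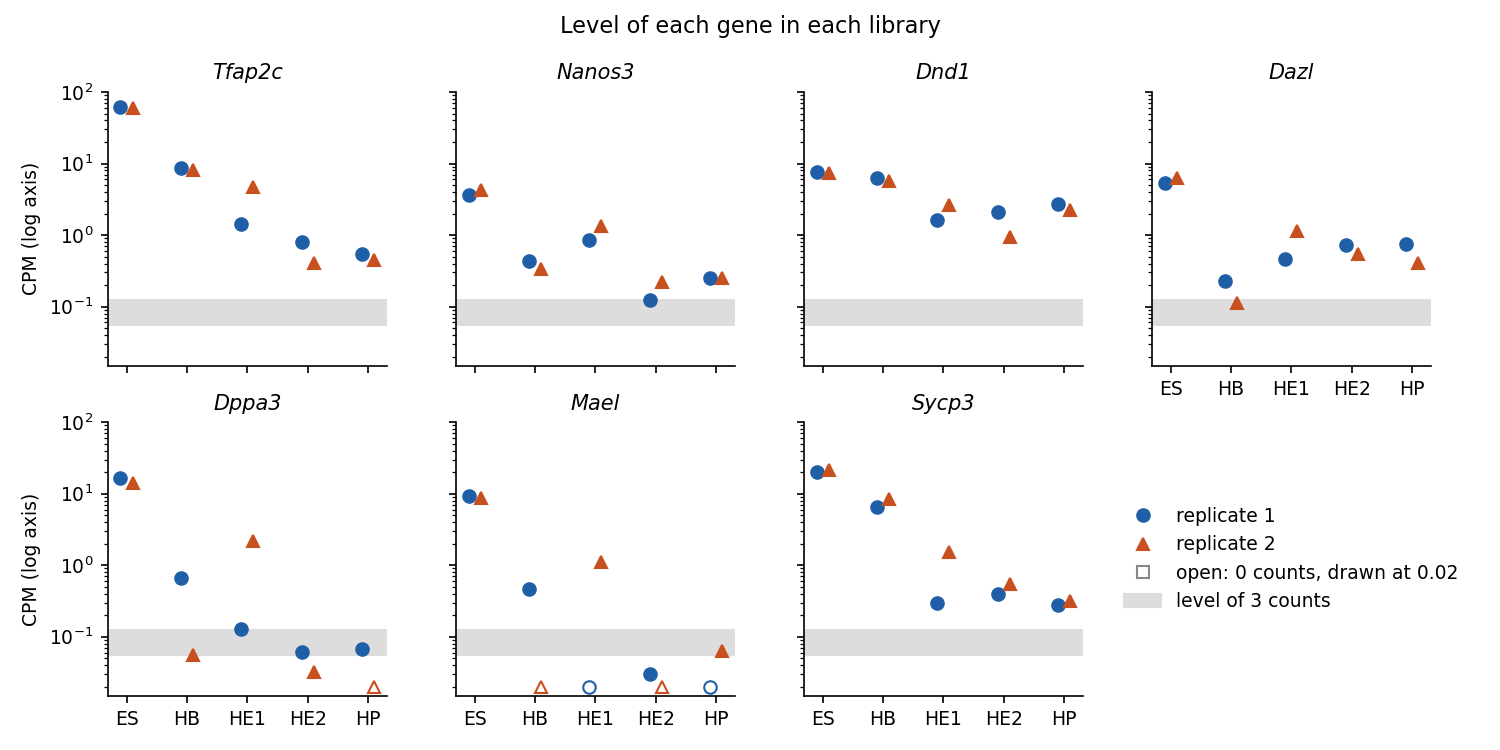
CPM of each gene in each of the 10 libraries on a log axis, with replicate 1 as circles and replicate 2 as triangles; open symbols mark 0 counts and the gray band the level of 3 counts. All 7 genes are highest in ES, and in HE1 the triangle lies above the circle in each of the 7 panels.

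Levels can be compared between genes only per length. On the scale of CPM per kb of exon, the ES means were 17.1 ± 1.95 for Dppa3, 16.6 ± 0.106 for Tfap2c, 16.5 ± 0.776 for Sycp3, 5.20 ± 0.189 for Mael, 4.30 ± 0.546 for Nanos3, 3.11 ± 0.0558 for Dnd1 and 1.51 ± 0.179 for Dazl (SD, n = 2). The first 3 of these did not differ beyond their spread. In HP the order was another. Dnd1 led with 1.03 ± 0.157 CPM per kb, followed by Nanos3 at 0.273 ± 0.00258, Sycp3 at 0.234 ± 0.0247, Dazl at 0.153 ± 0.0629 and Tfap2c at 0.135 ± 0.0197, and Dppa3 and Mael were at or below the floor. The small SD of Nanos3 comes from 11 and 8 counts, with 95% counting intervals of 0.125 to 0.449 and 0.110 to 0.501 CPM. Sycp3 had 12 and 10 counts, so the order of these genes is not resolved.

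From ES to HB, 6 of the 7 genes fell, with Dnd1 as the exception. Genes were called at an adjusted p under 0.05 (edgeR's quasi-likelihood test, Benjamini-Hochberg adjustment over all tested genes) and a change of at least 2-fold. By this rule 17.3% of all tested genes were lower in HB and 11.5% were higher. The log2 fold change was -5.06 ± 0.62 (SE) for Dazl (adjusted p = 0.000119), -3.36 ± 0.49 for Nanos3 (adjusted p = 0.000355), -2.85 ± 0.41 for Tfap2c (adjusted p = 0.000359) and -1.50 ± 0.46 for Sycp3 (adjusted p = 0.0237). Dppa3 gave -5.45 ± 1.08 (adjusted p = 0.0024) and Mael -5.33 ± 1.30 (adjusted p = 0.00783). By summed counts, Dppa3 was at 2.15% of its ES level (95% counting interval 1.34% to 3.27%) and Mael at 2.35% (1.28% to 3.96%). The HB libraries lay outside these intervals, with 4.33% and 0.369% of the ES mean for Dppa3 and 5.14% and 0% for Mael. Leaving out HB replicate 1 or 2 gave log2 fold changes of -7.97 or -4.52 for Dppa3 and, with Mael at 0 in the library that remained, -11.33 or -4.27. Dnd1 gave -0.33 ± 0.38 (adjusted p = 0.532). The median of the 7 was -3.36, against 0.0 over all genes. Sycp3 was no longer called when any of the 4 ES and HB libraries was left out (adjusted p = 0.0804 to 0.152) or with total counts in place of TMM (adjusted p = 0.0527). Mael was not called by DESeq2 (adjusted p = 0.159) or without HB replicate 2 (adjusted p = 0.0515).

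Between HB and HE1 the genes parted. Nanos3 and Dazl were higher in HE1, and Dnd1, Tfap2c and Sycp3 were lower, against 12.7% of all tested genes higher and 8.19% lower. Dazl differed by 2.22 ± 0.63 on the log2 scale (adjusted p = 0.0214) and Nanos3 by 1.52 ± 0.49 (adjusted p = 0.0357). Sycp3 gave -2.98 ± 0.52 (adjusted p = 0.00196), Dnd1 -1.48 ± 0.40 (adjusted p = 0.0176) and Tfap2c -1.44 ± 0.42 (adjusted p = 0.0241). Dppa3 (1.74 ± 1.05, adjusted p = 0.226) and Mael (1.39 ± 1.33, adjusted p = 0.444) overlapped between the stages and were not called, and without HE1 replicate 2 they gave -1.42 and -5.99. Without HE1 replicate 1 Dppa3 was called higher in HE1 (2.59, adjusted p = 0.0328) and Mael was not (2.29, adjusted p = 0.116), and with no filter on low counts Dppa3 was called as well (1.74, adjusted p = 0.00398). Both calls of higher genes rested on HE1 replicate 2. Without it Nanos3 gave 1.14 (adjusted p = 0.144) and Dazl 1.44 (adjusted p = 0.157), and the 3 lower genes kept their calls. Both were also lost without HB replicate 2 (adjusted p = 0.209 and 0.165), a fit that called 1 member in all, and without HB replicate 1 there were 2 calls. Over all genes, 2872 were higher in HE1 and 1850 lower, against 1469 and 1334 without HB replicate 2 and 1857 and 1637 without HB replicate 1. Nanos3 further lost its call without either ES library (adjusted p = 0.0946 and 0.0986) and without HB replicate 1 (adjusted p = 0.109). Dnd1 and Tfap2c lost theirs without either HB library (adjusted p = 0.0569 to 0.0766), and without HE1 replicate 1 Dnd1 had an adjusted p of 0.0554 and Tfap2c a log2 fold change of -0.88.

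From HE1 to HE2, 2 of the 7 genes fell, Nanos3 with a log2 fold change of -2.66 ± 0.53 (adjusted p = 0.0156) and Tfap2c with -2.36 ± 0.50 (adjusted p = 0.018). The background was 5.39% of tested genes lower and 3.26% higher. Dppa3 gave -4.55 ± 1.42 (adjusted p = 0.057) with 3 counts in HE2 against 68 in HE1, or 3.71% of the HE1 level by counts (95% interval 0.746% to 11.3%). Mael had 1 count against 34, or 2.47% (0.0608% to 14.7%; adjusted p = 0.111). Of these HE1 counts, 65 of the 68 of Dppa3 and all 34 of Mael came from replicate 2, and without it the log2 fold changes were -1.37 (adjusted p = 0.696) and 2.44 (adjusted p = 0.819). Sycp3 (-0.99 ± 0.58), Dnd1 (-0.48 ± 0.41) and Dazl (-0.34 ± 0.54) overlapped between the stages. No member was called without HE1 replicate 2 and none without HE2 replicate 2, while 5 were called without HE1 replicate 1, with Dppa3 (-5.40, adjusted p = 0.00953), Mael (-5.87, adjusted p = 0.0249) and Sycp3 (-1.67, adjusted p = 0.0138) added. DESeq2 called Dppa3 as well (-4.64, adjusted p = 0.0405). In the fits that lost the calls, Nanos3 had log2 fold changes of -2.27 (adjusted p = 0.0652) and -3.12 (adjusted p = 0.0591), and Tfap2c had -1.24 (adjusted p = 0.0988) and -1.96 (adjusted p = 0.15). Over all genes, the number lower in HE2 went from 1217 to 260 without HE1 replicate 2 and to 2927 without HE1 replicate 1. It was 98 without HE2 replicate 2, 2118 without HE2 replicate 1, and 685 to 700 without any 1 of the ES or HB libraries.

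From HE1 to HP, Dppa3, Nanos3 and Tfap2c fell, against 11.2% of tested genes lower and 5.35% higher. The log2 fold changes were -2.63 ± 0.50 for Tfap2c (adjusted p = 0.00432), -2.11 ± 0.50 for Nanos3 (adjusted p = 0.0127) and -4.78 ± 1.41 for Dppa3 (adjusted p = 0.0318). Only 3 counts of Dppa3 remained in HP, which is 3.17% of the HE1 level (95% counting interval 0.637% to 9.66%). That level too rests on HE1 replicate 2, and without it the log2 fold change of Dppa3 was -1.60 (adjusted p = 0.63). Sycp3 (-1.66 ± 0.60, adjusted p = 0.0693), Mael (-4.26 ± 1.79, adjusted p = 0.106), Dazl (-0.44 ± 0.54) and Dnd1 (0.23 ± 0.40) were not called. Without HE1 replicate 2 Tfap2c was the 1 member called (-1.51, adjusted p = 0.0238), and Nanos3 gave -1.72 (adjusted p = 0.0614). Without HP replicate 1 it was also Tfap2c alone, and Nanos3 gave -2.08 (adjusted p = 0.083). Without HE1 replicate 1, 5 were called, with Sycp3 (-2.33, adjusted p = 0.00289) and Mael (-5.18, adjusted p = 0.0197) added. The number of all genes lower in HP moved in the same direction, from 2525 to 1618, 1135 and 3684 in these fits. DESeq2 called 4 members, with Sycp3 added (-1.67, adjusted p = 0.022). Dppa3 was not called without HP replicate 2 either (adjusted p = 0.111). Limma-voom did not call Dppa3 (adjusted p = 0.0972).

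Between HE2 and HP no member was called by edgeR, and none had an unadjusted p under 0.05. The background was 0.0% here, since no gene of the 22596 was called, although 1783 had an unadjusted p under 0.05. DESeq2 called 107 genes as higher and 194 as lower in HP, and limma-voom called 35 and 27, with no member among either.

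Over the whole course, HP against ES, all 7 genes were lower and no library of HP reached one of ES. The background was 21.9% of tested genes lower and 16.7% higher. The log2 fold change was -6.92 ± 0.53 for Tfap2c (adjusted p = 3.2e-06), -6.13 ± 0.60 for Sycp3 (adjusted p = 1.59e-05), -3.96 ± 0.50 for Nanos3 (adjusted p = 9.55e-05), -3.28 ± 0.54 for Dazl (adjusted p = 0.000514) and -1.58 ± 0.39 for Dnd1 (adjusted p = 0.00626). For the other members HP held 2 counts of Mael and 3 of Dppa3, which put them at 0.293% (95% counting interval 0.0354% to 1.06%) and 0.256% (0.0527% to 0.749%) of ES. All 7 calls were kept under each alternative, including each library left out in turn. The comparisons of HB and HP with ES share the ES libraries, as those of HE2 and HP with HE1 share the HE1 libraries.

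**Figure D2:**
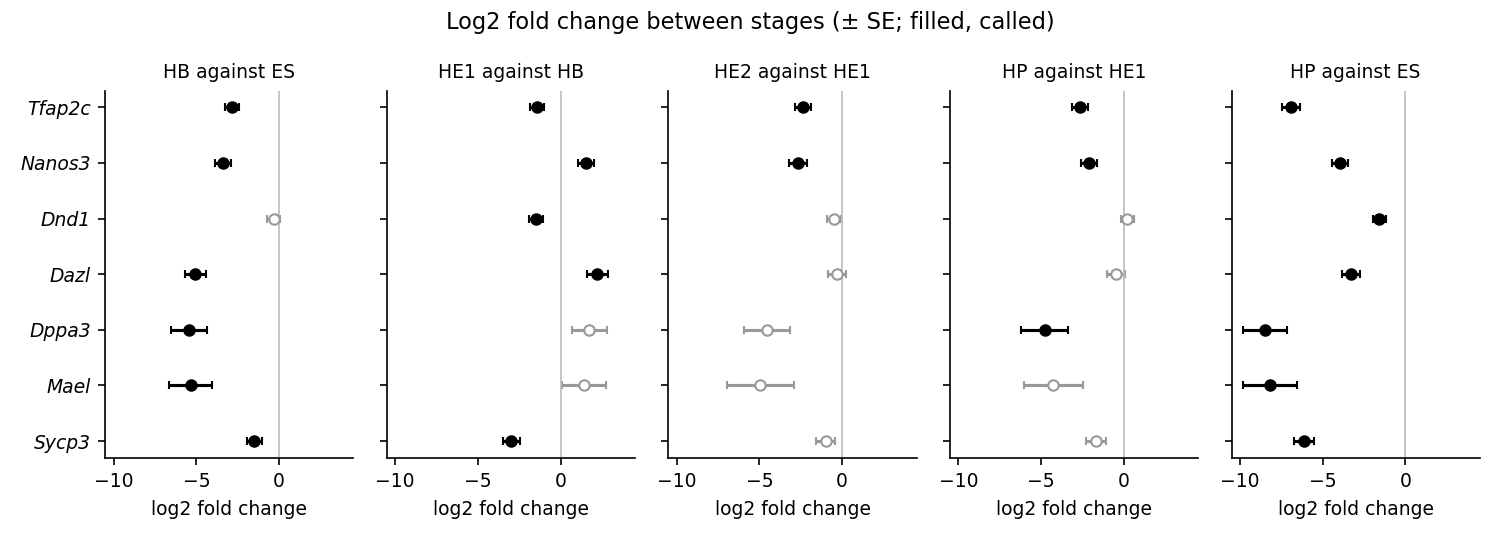
Log2 fold change (x axis) of each gene in 5 comparisons of stages; points are edgeR estimates, bars ± SE, filled points were called and open gray points were not. In HP against ES all 7 points are filled and lie left of 0, and in HE1 against HB they lie on both sides.

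The libraries of HE1 were compared directly, as 1 library against 1 and with no test. All 7 genes were higher in replicate 2, and 5 of them were at least 2-fold higher, while 15.9% of all tested genes passed that fold in this direction. Mael had 0 counts in replicate 1 and 34 in replicate 2, which is 8.90 times the floor of 3 counts, and the 95% counting interval of the ratio starts at 6.85. Dppa3 had 3 and 65 counts, a ratio of 17.0 (95% counting interval 5.57 to 84.6). Sycp3 had 7 and 46 counts (ratio 5.16, 2.31 to 13.5), Tfap2c 34 and 143 (3.30, 2.26 to 4.95), and Dazl 11 and 34 (2.43, 1.20 to 5.31). The smallest ratios were those of Nanos3 (20 and 41 counts, 1.61, 0.922 to 2.90) and Dnd1 (39 and 79 counts, 1.59, 1.07 to 2.40), both on CPM after scaling of the libraries. The median log2 difference of the 7 was 1.68, against -0.02 over all tested genes. Since nothing but the replicate number separates these libraries in the labels, the reason was not tested.

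In ES, HB, HE2 and HP, between 1 and 3 of the 7 genes were higher in replicate 2. The median log2 difference between replicate 2 and replicate 1 of the 7 was -0.01 in ES, -0.30 in HB, -0.41 in HE2 and -0.27 in HP. In HB, Dppa3 and Mael differed the other way. Replicate 1 had 20 counts of Dppa3 against 2 and 14 of Mael against 0, and 7.49% of all tested genes were at least 2-fold above replicate 2. On this log2 scale with its prior count, the other members differed by less than 2-fold in HB, although the CPM of Dazl (0.231 and 0.113) were over 2-fold apart from 7 and 4 counts. In HE2, Dnd1 was over 2-fold higher in replicate 1 (69 and 30 counts), as were 13.2% of all tested genes. In HP, Dppa3 passed this fold in replicate 1 (3 and 0 counts) and Mael in replicate 2 (0 and 2 counts), where 3.42% and 10.5% of all genes passed it in these directions.

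**Figure D3:**
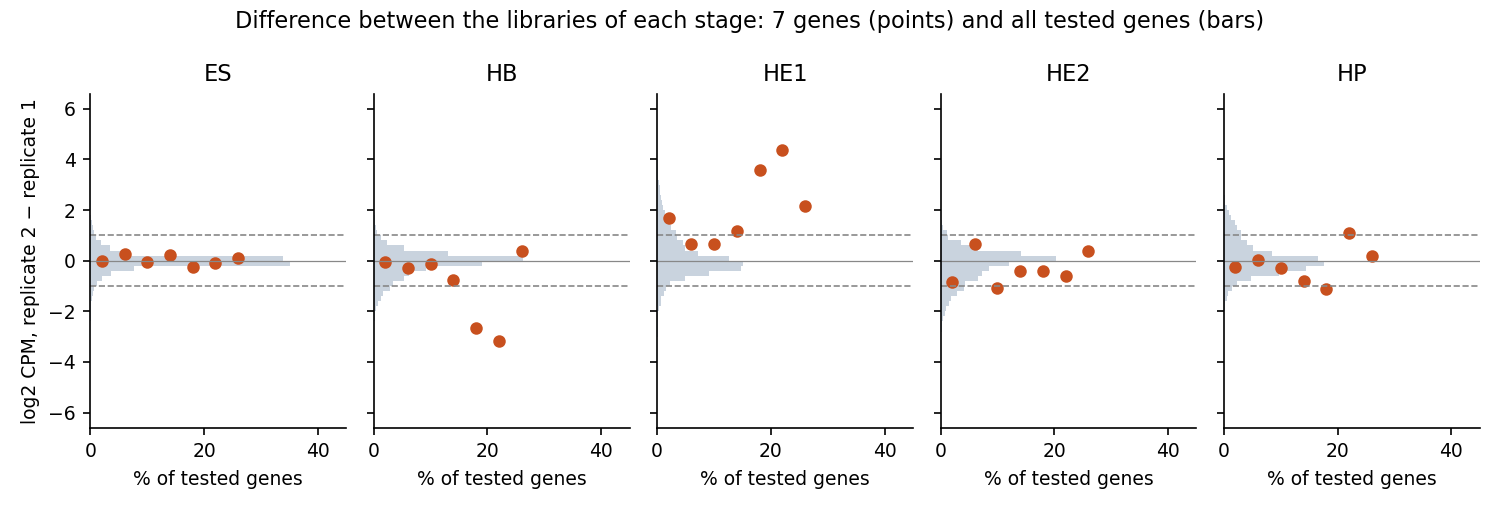
Log2 CPM of replicate 2 minus replicate 1 (y axis) in each stage for the 7 genes (points, from left Tfap2c, Nanos3, Dnd1, Dazl, Dppa3, Mael and Sycp3, whose place along the x axis has no meaning) and for all tested genes (bars, percent of genes on the x axis); dashed lines mark 2-fold. In HE1 all 7 points lie above 0 and 5 above the upper dashed line, and in HB the points of Dppa3 and Mael lie below the lower dashed line.

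Expressed as a share of the ES mean, the germline genes in HE1 replicate 2 stood above the median gene of pluripotency. The 7 members held 7.28% (Sycp3) to 34.8% (Dnd1) of their ES level there, with a median of 14.0%, and 0% to 21.9% in replicate 1, with a median of 2.35%. The 24 genes of a pluripotency list held a median of 3.54% in replicate 2 and 0.526% in replicate 1. The members also had the higher median in the other sorted stages. It was 10.8% and 8.50% against 5.51% and 4.34% in HB. In HE2 it was 1.90% and 2.58% against 0.302% and 0.229%, and in HP 1.31% and 1.52% against 0.487% and 0.196%. In HE1 replicate 2 the highest genes of the list were Tbx3 (43.1%), Klf2 (32.3%), Trim28 (25.0%), Klf4 (24.6%) and Sall4 (15.5%), which lay within or above the range of the members. The 5 ES markers among them were at 4.91% (Pou5f1), 5.18% (Nanog), 2.69% (Sox2), 2.41% (Zfp42) and 2.203% (Esrrb) in replicate 2, and at 0.207% to 0.527% in replicate 1. The surplus of replicate 2 over replicate 1 was 5.41% of the ES level for Tfap2c, 5.87% for Sycp3, and 11.4% to 13.2% for Dazl, Mael, Nanos3, Dnd1 and Dppa3. These are differences between low counts. For Nanos3 (20 and 41 counts) the 95% counting interval of the ratio, 0.922 to 2.90, includes no difference. For the pluripotency list the median surplus was 1.44%, with the highest value for Utf1 (8.16%), and the ES markers ranged from 1.92% (Esrrb) to 4.86% (Nanog). Klf2 and Tbx3 had the lowest values, at -38.4% each, being higher in replicate 1. The shares in HE1 replicate 2 are a description of 1 library, and the part of residual ES cells or of any other cell type in them was not tested.

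**Figure D4:**
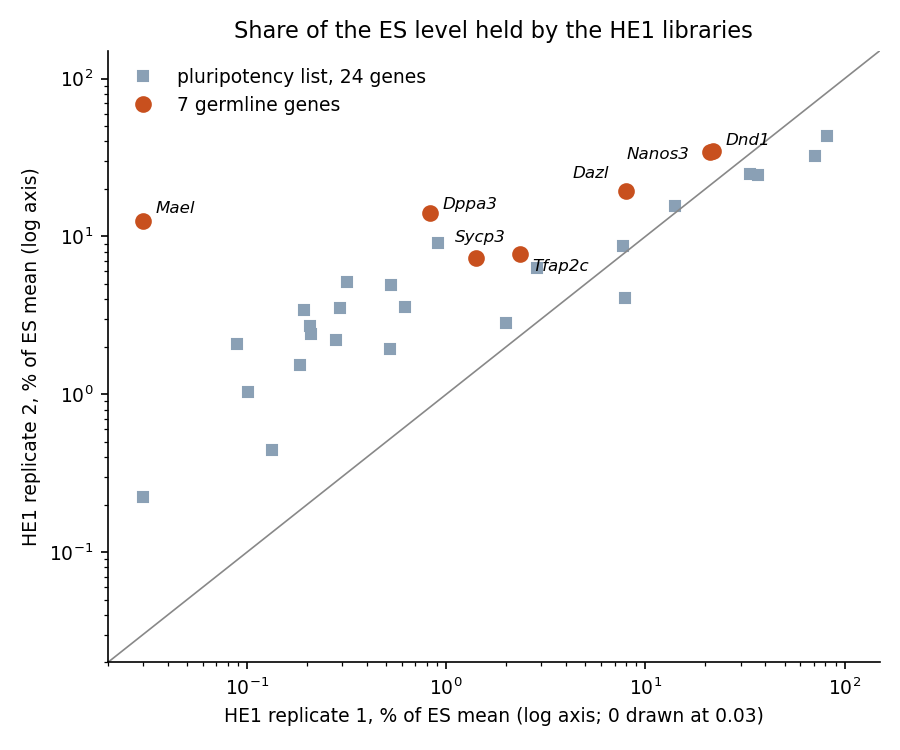
Level as a percent of the ES mean in HE1 replicate 1 (x axis) and replicate 2 (y axis), both on log axes, for the 7 genes (circles) and the 24 genes of the pluripotency list (squares); the line marks equal values. All circles lie above the line, from 7.28% to 34.8% on the y axis, and the squares have a median of 3.54% and reach 43.1%.

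The wider germline program was followed with lists of further genes, none of them a member. In HB, 17 of 20 tested genes of germ cell specification and germ cell RNA regulation were lower than in ES and 1 was higher (median log2 fold change -2.54), against 17.3% and 11.5% of all tested genes. The same direction held for 20 of 25 genes of the piRNA pathway and of germline promoters silenced by DNA methylation with 1 higher (median -4.72), and for 16 of 24 meiotic genes with 1 higher (median -2.70). The pluripotency list had 20 of 24 genes lower and 1 higher. Some genes of these lists passed the filter through ES alone and could only come out lower, such as the meiotic gene Stra8. It had at most 4 counts in any library outside ES. Rhox6 and Rhox9, X-linked homeobox genes, fell from 6.08 and 6.05 CPM in ES to 0 and 0.0282 in HB and from 7.15 and 7.37 to 0.165 and 0.0845. Sohlh2, a transcription factor of early oocytes and spermatogonia, went from 17.5 and 15.9 CPM to 0.364 and 0.0845 (log2 fold change -6.24 ± 1.16, adjusted p = 0.00171). Smc1b, a meiotic cohesin subunit, went from 33.3 and 33.6 to 0.628 and 0.423 (-5.99 ± 0.76, adjusted p = 0.00015), and Tdrd12, a factor of piRNA production, from 75.3 and 75.6 to 1.65 and 0.394 (-6.23 ± 0.62, adjusted p = 3.18e-05). Of the lists, Pou5f1, Prdm14, Dppa2 and Dppa4 stand both in that of germ cells and in that of pluripotency, Ddx4 in those of germ cells and of the piRNA pathway, and Trim28 in those of pluripotency and of the repressors of germline genes.

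Genes known from the 2-cell-like state, a rare state of ES cells, were also nearly lost. Against ES, 17 of 19 tested were lower in HB and none was higher, where 17.3% of all genes were lower and 11.5% higher. In HP 18 of 19 were lower and 1 (Sp110) was higher, against 21.9% and 16.7% of all genes. Zscan4b, Zscan4e, Zfp352 and Tdpoz3 had 0 counts in every library outside ES. Such genes passed the filter through ES alone and could only come out lower, so these counts of lower genes are a description. The summed level of the 2-cell-like genes was 65.9 and 70.6 CPM in ES, 5.49 and 6.39 in HB, 0.589 and 2.77 at HE1, 2.10 and 1.14 at HE2, and 6.36 and 1.81 in HP. Outside ES single genes made up much of these sums, with Tcstv3 at 3.97 and 5.44 CPM in HB, above its 1.90 and 1.89 in ES, and Sp110 at 6.05 and 1.56 in HP. Many of them, the Zscan4 and Usp17l genes among them, are near-identical copies whose reads can map to several places and were then not counted, so that their single values are uncertain.

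In HE1 these lists parted between the libraries as the members did. At least 2-fold higher in replicate 2 were 10 of 20 germ cell genes, 12 of 24 meiotic genes, 15 of 25 genes of the piRNA list and 16 of 24 genes of the pluripotency list, against the 15.9% of all tested genes. Sohlh2 had 0 CPM in replicate 1 and 1.95 in replicate 2, and Tex19.1, a germline gene silenced by methylation, 0.715 and 5.35. Smc1b had 0.126 and 1.59, Piwil2, a PIWI protein of germ cells, 0.631 and 2.11, and Sycp2, the partner of SYCP3 in the chromosome axis, 0.252 and 1.98. Of further genes of the germ cell list, Pou5f1 was at 2.82 and 26.3 CPM, Dppa2 at 1.81 and 3.997, Prdm14 at 0.421 and 0.595 (10 and 18 counts) and Prdm1 at 15.2 and 12.9.

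The counts of called genes on these lists in comparisons with HE1 moved with the HE1 library in the fit, as did those over all genes. They are given in the order germ cell, meiotic, piRNA and pluripotency list, of 20, 24, 25 and 24 tested genes with both HE1 libraries, 20, 25, 27 and 24 without replicate 2, and 21, 25, 27 and 24 without replicate 1. In HE2 against HE1, 3, 2, 2 and 13 genes were lower and 4, 1, 1 and 0 were higher, against 5.39% and 3.26% of all tested genes. Without HE1 replicate 2, 0, 0, 0 and 2 were lower and 2, 0, 0 and 0 were higher (1.1% and 1.56% of all genes). Without HE1 replicate 1, 8, 9, 9 and 14 were lower and 3, 1, 1 and 0 were higher (2927 and 1368 of all 24371 genes). The fit with a single HE1 library thus had more lower genes when that library was replicate 2. In HP against HE1, 6, 3, 7 and 16 genes were lower and 4, 2, 1 and 0 were higher, against 11.2% and 5.35% of all genes. Without HE1 replicate 2, 2, 0, 1 and 5 were lower and 3, 1, 2 and 0 were higher (6.86% and 3.87%). Without HE1 replicate 1, 10, 8, 8 and 18 were lower and 4, 2, 1 and 0 were higher (15.1% and 7.29%). Here too each list had its most lower genes without replicate 1 and its fewest without replicate 2. In HE1 against HB, 4, 5, 2 and 5 genes were lower and 3, 0, 2 and 1 were higher, against 8.19% and 12.7% of all genes. Without HE1 replicate 2, 5, 7, 4 and 14 were lower and 2, 0, 0 and 1 were higher (7.22% and 9.6%). Without HE1 replicate 1, 4, 7, 1 and 5 were lower and 6, 6, 7 and 3 were higher (8.93% and 13.9%). Counts for HP against ES were not affected in this way, with 16 germ cell genes, 20 meiotic genes and 24 pluripotency genes lower in either case, and 20 of 25 or 22 of 27 tested genes of the piRNA list, against 21.9% of all genes. Higher in HP were 3 germ cell, 2 meiotic, 1 piRNA list and 0 pluripotency genes, against 16.7%.

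A few germline genes went up instead. Zbtb16 (PLZF), which maintains spermatogonial stem cells and is also a factor of blood cells, rose from 1.98 and 2.18 CPM in HE1 to 9.08 and 18.7 in HE2 (log2 fold change 2.74 ± 0.32, adjusted p = 0.00118) and was at 46.5 and 51.2 in HP. Tdrd5 rose from 1.43 and 1.06 CPM in HE1 to 16.9 and 13.3 in HP (3.61 ± 0.39, adjusted p = 0.00028). Tdrd7 rose from 6.15 and 4.56 CPM in HB to 38.4 and 32.2 in HE1 (2.72 ± 0.23, adjusted p = 2.74e-05), and Tdrkh, a partner of PIWI proteins, from 12.4 and 8.42 in HE1 to 21.2 and 31.3 in HE2 (1.34 ± 0.26, adjusted p = 0.014). Tdrkh was not called without HE1 replicate 2 (1.08, adjusted p = 0.0811), while Zbtb16, Tdrd5 and Tdrd7 kept these calls when either HE1 library was left out. Kit, which germ cells and blood progenitors both need, is also an antigen of the sort and gives no independent value.

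Of the enzymes that write and erase DNA methylation, 4 of 11 tested were lower in HB than in ES and 1 was higher, against 17.3% and 11.5% of all tested genes. Dnmt3l, a cofactor of de novo methylation that is typical of ES and germ cells, fell from 168 and 156 CPM to 3.87 and 1.01 (log2 fold change -6.07 ± 0.98, adjusted p = 0.000736). It was at 0.715 CPM in HE1 replicate 1 and 9.88 in replicate 2. Tet1, an oxidase of 5-methylcytosine, fell from 1674 and 1767 CPM to 183 and 154 in HB (-3.35 ± 0.20, adjusted p = 1.57e-06) and Tet2 from 262 and 273 to 98.5 and 86.9 (-1.53 ± 0.22, adjusted p = 0.000301). Tet3 went the other way and was higher in HP (224 and 232 CPM) than in ES (37.2 and 38.8; 2.59 ± 0.16, adjusted p = 7.88e-07). The maintenance enzyme Dnmt1 stayed between 299.7 and 658 CPM in every library.

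The known repressors of germline genes were transcribed at all stages. Of the 21 tested genes for PRC1.6, SETDB1 and G9a, 3 were lower in HB than in ES (Mga, L3mbtl2 and Atf7ip) and 1 was higher (Yaf2), with a median log2 fold change of 0.0. These shares are near or below the 17.3% lower and 11.5% higher among all genes. Mga, the DNA-binding scaffold of PRC1.6, went from 758 and 795 CPM to 321 and 326 (-1.26 ± 0.18, adjusted p = 0.00032), and Yaf2 from 5.04 and 5.91 to 25.7 and 27.7 (2.29 ± 0.18, adjusted p = 8.69e-06). In HP against ES, 5 of the 21 were lower and 2 were higher, against 21.9% and 16.7% of all genes. Mga was at 227 and 270 CPM in HP (-1.65 ± 0.18, adjusted p = 3.6e-05) and Pcgf6, the PCGF subunit of PRC1.6, at 70.1 and 71.0 in ES and 23.3 and 23.9 in HP (-1.58 ± 0.15, adjusted p = 1.14e-05). E2f6 went the other way, from 24.3 and 23.8 to 58.7 and 59.7 (1.30 ± 0.21, adjusted p = 0.000466). By edgeR none of the 21 was called in HE1 against HB (8.19% of all genes lower, 12.7% higher), HE2 against HE1 (5.39% and 3.26%) or HP against HE1 (11.2% and 5.35%), and none differed 2-fold between the HE1 libraries. Without HE1 replicate 1, 2 of the 21 were lower in HE1 than in HB, near the 8.93% of all genes in that fit.

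The related TFAP2 genes stayed low. Tfap2a was at 2.38 and 2.21 CPM in ES and Tfap2e at 1.33 and 1.69, and both fell in HB (log2 fold change -1.70 ± 0.60, adjusted p = 0.0449, and -3.59 ± 0.66, adjusted p = 0.00159), while Tfap2b and Tfap2d did not pass the filter. In HE1, Tfap2e was at 0.210 and 0.562 CPM.

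The genes most like each member were found by Pearson's r of log2 CPM over the 10 libraries, which is given as a description, since all genes share the libraries and the drop after ES. For Tfap2c they were Stac2, Enah (r = 0.997 each) and Mtcl1 (0.996), for Nanos3 Tfap2e (0.993), Bfsp1 (0.991) and Gm12794 (0.976), for Dnd1 Ret (0.991), Gm23344 (0.989) and Tmem82 (0.981), and for Dazl Myrf (0.991), Mras (0.988) and Eppk1 (0.986). For Dppa3 they were Nat8l, Utf1 (0.991 each) and Slc6a5 (0.990), for Mael Slc6a5 (0.993), Tktl1 (0.991) and Usp17le (0.990), and for Sycp3 Plbd1 (0.993), Crocc and D030068K23Rik (0.992 each). Within the 7, Dppa3 and Mael were closest to each other (r = 0.972), then Tfap2c and Sycp3 (0.957) and Dppa3 and Nanos3 (0.934), and Dnd1 and Dazl were the least alike (0.350).

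The promoters of members were read from RefSeq (GRCm38.p6) over the 250 bases before the transcript start, with 4 of the 7 matched (Mael, Sycp3, Dazl and Nanos3). Those of Mael and Sycp3, members of the piRNA pathway and of the meiotic axis, are shown because both hold the letters that MGA-MAX and E2F6 are known to bind, with the E-box CACGTG and the E2F6 core TCCCGC (or GCGGGA on the other strand) in capitals. The Mael promoter lies at chr1:166238745-166238994 on the minus strand and the Sycp3 promoter at chr10:88459337-88459586 on the plus strand.
Mael: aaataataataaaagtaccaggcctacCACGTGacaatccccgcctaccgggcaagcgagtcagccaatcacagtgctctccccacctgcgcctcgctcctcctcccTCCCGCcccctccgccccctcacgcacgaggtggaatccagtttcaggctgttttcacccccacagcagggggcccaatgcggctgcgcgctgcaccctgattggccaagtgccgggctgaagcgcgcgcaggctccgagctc
Sycp3: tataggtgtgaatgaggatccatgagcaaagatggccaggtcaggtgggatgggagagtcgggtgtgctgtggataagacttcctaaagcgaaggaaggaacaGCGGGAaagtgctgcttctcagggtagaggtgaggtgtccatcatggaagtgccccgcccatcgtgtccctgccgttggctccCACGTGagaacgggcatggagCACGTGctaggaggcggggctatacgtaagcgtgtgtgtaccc

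Mael held 1 E-box and 1 E2F6 core, and Sycp3 held 2 E-boxes and 1 core. Among all 32851 promoters of the same length, 6.02% had an E-box, 16.9% a core and 1.45% both. Dazl and Nanos3 had neither. CpG sites numbered 18 in Mael, 12 in Sycp3, 20 in Dazl and 3 in Nanos3, against a median of 6 over all promoters, and the RefSeq start of Nanos3 is not that of the count tables. No DNA methylation or factor binding was analysed here, and a match is a description of the letters.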

How the data were processed

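Nuclear RNA was depleted of rRNA and sequenced with a stranded protocol from 2 libraries for each of 5 stages. The deposited counts are raw: the authors filtered reads with RiboDetector and Trimmomatic, mapped them with Hisat2 (v2.2.1; mm10), and used featureCounts (v2.0.1) in its reverse-stranded mode to count pairs over Ensembl exons. A pair over several genes was counted on each, and reads with several alignments were not counted. A deposited matrix of stage averages was not used.

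The 7 genes and all gene lists were chosen with earlier results of these data known. Counts were filtered with filterByExpr on the stage, scaled with TMM, and fitted with edgeR (v4.0.16, R v4.3.3) to all 10 libraries with stage as the only term and 5 residual degrees of freedom. Stages were compared by its quasi-likelihood test, p-values were adjusted by the Benjamini-Hochberg method over 22596 genes, and genes were called at an adjusted p under 0.05 and a 2-fold change. The SE is the absolute log2 fold change over the square root of F. CPM used the scaled library sizes, and log2 CPM added a prior count of 2. Count ratios have exact 95% intervals. All 7 genes are described. From each list, genes were named among the 4 called ones with the largest change in a comparison, or at 1 CPM and 2-fold higher in HE1 replicate 2. Prdm1, Prdm14, Kit and Dnmt1 were added after their values were seen. The fit was tested on simulated data. Alternatives were limma-voom (v3.58.1), DESeq2 (v1.42.0), total counts, no filter, only the libraries compared, a replicate block, library sizes that leave out the 20 most counted genes, no fold criterion, and each library left out. Promoters were RefSeq sequences (GRCm38.p6).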

Additional observations from a re-analysis of the deposited data

How the results depend on the processing

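The number of members called in HB against ES, HP against HE2 and HP against ES stayed within 1.5-fold under every alternative. In HE1 against HB it went from 5 to 2 with only the 4 libraries of the stages compared, in HE2 against HE1 from 2 to 0, and in HP against HE1 from 3 to 1. These fits have fewer libraries to estimate the spread, and in HE2 and HP against HE1 only 5 and 4 members passed their filter. Without a filter on low counts it was 4 in HE2 against HE1 and 5 in HP against HE1, and the cause was not tested. Leaving out each library gave 1 to 5 calls in HE1 against HB, 0 to 5 in HE2 against HE1 and 1 to 5 in HP against HE1. Of the genes at least 2-fold apart between the HE1 libraries, 3 were at least 4-fold apart, and the 5 at 2-fold stayed under each scaling and prior count. 

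Single members were followed under 17 alternatives in all comparisons except HP against HE2. Of these 590 log2 fold changes, 531 kept their direction and side of the threshold, 38 lost a call, 13 gained it and 8 changed sign. All 8 came from leaving out an HE1 library. Without HE1 replicate 2 this held for Dppa3 and Mael in HE1 against HB, Dazl, Mael and Sycp3 in HE2 against HE1, and Dazl and Mael in HP against HE1, and without HE1 replicate 1 for Dnd1 in HP against HE1. Over all libraries left out in turn, the log2 fold changes ranged from -1.42 to 4.23 for Dppa3 and -5.99 to 7.36 for Mael in HE1 against HB. In HE2 against HE1 they ranged from -0.79 to 0.45 for Dazl, -7.36 to 2.44 for Mael and -1.67 to 0.66 for Sycp3. In HP against HE1 they ranged from -0.93 to 0.35 for Dazl, -7.37 to 3.12 for Mael and -0.035 to 0.61 for Dnd1. Where a library is left out, its partner is assumed to vary like the other stages.

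The replicate numbers were not shown to pair samples, since the correlations of deviations between stages ranged from -0.316 to 0.213. A replicate block gave 6, 4, 2, 0, 3 and 7 calls in HB against ES, HE1 against HB, HE2 against HE1, HP against HE2, HP against HE1 and HP against ES, against 6, 5, 2, 0, 3 and 7 without it, and Nanos3 was the call lost (1.48, adjusted p = 0.0631 by edgeR). At the depth of these libraries, levels of Dppa3 and Mael under about 0.1 CPM cannot be told from 0.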
